A study of Mus musculus with 4 samples.

Results

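A set of 10 genes of the primitive endoderm was followed through 4 RNA-seq libraries, all from mouse embryonic stem cells (ESCs). They were taken by symbol from a deposited table of read counts, which lists 50559 genes, and all 10 symbols were found: *Gata4*, *Gata6*, *Sox17*, *Sox7*, *Pdgfra*, *Dab2*, *Lama1*, *Lamb1*, *Col4a1* and *Col4a2*. The study asked whether YTHDF2, a cytoplasmic protein that binds N6-methyladenosine (m6A) in mRNA, needs this binding to hold back the 2-cell-like (2C-like) state of ESCs. The cells were of the E14 line and grew on gelatin with serum replacement and leukemia inhibitory factor, and per the study's methods its hairpins were delivered by lentivirus, expressed from a U6 promoter and kept as stable puromycin-selected lines. The first library, shScram+EV, carried a scrambled hairpin and the empty vector (the control), and the second, shYthdf2+EV, a hairpin against *Ythdf2* and the empty vector (the knockdown). The next, shYthdf2+DF2WT, carried the *Ythdf2* hairpin and wild-type YTHDF2 (the wild-type construct), and the last, shYthdf2+DF2Mut, a *Ythdf2* hairpin and YTHDF2 mutated in its m6A binding (the mutant construct). The study's methods describe its ESCs as also holding a tdTomato transgene under the MERVL promoter, which would be shared by all groups. Which of the study's hairpins was used in these lines is not given in the sources used here.

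The primitive endoderm is the extraembryonic layer that the inner cell mass of the blastocyst forms beside the epiblast, the layer from which ESCs are derived. Fibroblast growth factor (FGF) signalling directs inner cell mass cells toward it, the transcription factors GATA6, SOX17, GATA4 and SOX7 mark and drive its formation, and the receptor PDGFRA and the adaptor DAB2 appear on or in its cells. Its parietal descendants lay down a thick basement membrane of laminin and collagen IV. ESC cultures hold these transcripts mostly at low levels, and in bulk RNA fewer cells of a type and less RNA per cell cannot be told apart.

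Each group had 1 library, so the differences below lack a replicate check, and p-values are not given. The libraries held between 31533129 and 35742335 counted reads. A ratio is given as log2 between libraries scaled with edgeR's TMM factors, with a 95% interval from the number of read pairs in parentheses, which covers counting error only. Genes were called when they differed by at least 2-fold. *Ythdf2* itself had 2806 reads in the control and 662 in the knockdown, which after scaling is 20.7% of the control level, against 262% under the wild-type construct and 245% under the mutant, where reads of the construct and of the cells' own gene cannot be told apart. The 18 pluripotency genes listed, among them *Pou5f1*, *Sox2* and *Nanog*, summed to between 7127 and 7722 CPM (reads scaled to library size) in the 4 libraries, with none called in any of the 5 comparisons. The 10 primitive endoderm genes summed to between 325 and 343 CPM. The cells labelled as ESCs therefore had far more pluripotency transcript than primitive endoderm transcript in every library.

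Per length of exon, as FPKM (reads scaled for exon length and library size), the genes fell into 2 tiers. The 4 basement membrane genes lay between 5.39 and 25.3 FPKM, at percentiles 59.5 to 84.3 of the 18586 genes tested, those averaging 10 reads or more. The 4 transcription factors, *Pdgfra* and *Dab2* lay between 0.0775 and 1.37 FPKM, at percentiles 6.53 to 33.0. All 10 passed the filter on low counts, and none was left out of a count or median. The low tier held 410 to 815 reads in a library in all, and the upper tier 9744 to 10881, so that most of the transcript from these genes was of the basement membrane.

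**Figure D1:**
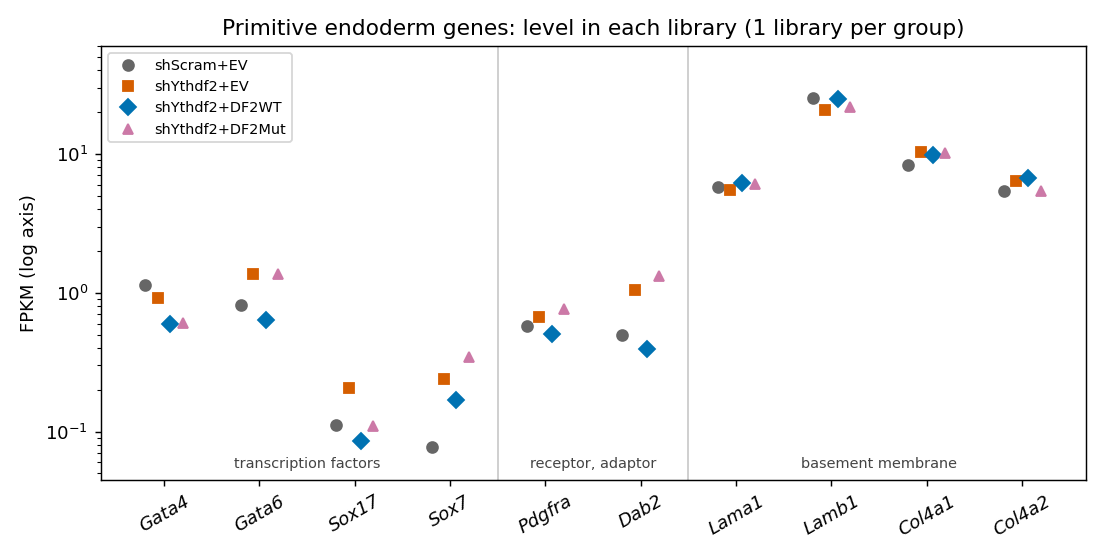
Level of each of the 10 genes in each library, in FPKM on a log axis, with 1 point per library and no error bar because each group had 1 library. The points of the 4 basement membrane genes lie close together above 5 FPKM, while *Sox7* and *Dab2* are spread most widely and lie below 2 FPKM.

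Promoter sequences are shown for the gene with the widest ratio between the constructs, *Dab2*, and for *Col4a1* and *Col4a2*, which start head to head. RefSeq windows of 250 bases before and 50 after an annotated start were at hand for 5 of the 10 symbols, on GRCm38.p6. The words searched on both strands, which GATA factors are known to bind, were AGATAA and TGATAA, and likewise AGATAG beside TGATAG. Of the 32851 windows 29.8% hold one or more. Of the 6 windows of these genes, 1 does, the first of the pair for *Dab2*, at chr15:6299539-6299838 on the plus strand. In it capitals mark TGATAA, which begins 179 bases before the start, and TTATCT, the reverse complement of AGATAA, which begins 15 bases after it. The second window, at chr15:6386498-6386797 on the plus strand, holds none. A match describes letters and not binding, and the counts, which sum all exons of a gene, do not separate the starts.
*Dab2*, first start: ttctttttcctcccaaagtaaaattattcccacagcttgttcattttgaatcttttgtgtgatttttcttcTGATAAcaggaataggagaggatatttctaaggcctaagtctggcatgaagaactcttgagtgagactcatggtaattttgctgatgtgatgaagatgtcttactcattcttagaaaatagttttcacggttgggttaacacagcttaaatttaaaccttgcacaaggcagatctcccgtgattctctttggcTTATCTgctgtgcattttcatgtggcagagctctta
*Dab2*, second start: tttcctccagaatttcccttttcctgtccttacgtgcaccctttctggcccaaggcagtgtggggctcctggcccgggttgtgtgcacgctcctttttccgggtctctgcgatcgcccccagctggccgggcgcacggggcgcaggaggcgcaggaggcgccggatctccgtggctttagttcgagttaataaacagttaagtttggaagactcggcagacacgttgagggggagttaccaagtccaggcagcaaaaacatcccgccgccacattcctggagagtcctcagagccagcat

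*Col4a1* and *Col4a2* encode the α1 and α2 chains of collagen IV. Their annotated starts lie 21 bases apart on opposite strands of chromosome 8. The window of *Col4a1* is chr8:11312777-11313076 on the minus strand and that of *Col4a2* chr8:11312555-11312854 on the plus strand. Capitals mark the 78 bases that both windows hold, each read 5′ to 3′ on its own strand.
*Col4a1*: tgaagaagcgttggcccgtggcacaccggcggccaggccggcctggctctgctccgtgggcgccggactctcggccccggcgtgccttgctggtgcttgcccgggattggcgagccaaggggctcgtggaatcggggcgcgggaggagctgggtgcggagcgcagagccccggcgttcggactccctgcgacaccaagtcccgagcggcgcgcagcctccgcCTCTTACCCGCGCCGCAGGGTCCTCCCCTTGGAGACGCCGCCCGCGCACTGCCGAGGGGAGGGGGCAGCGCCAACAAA
*Col4a2*: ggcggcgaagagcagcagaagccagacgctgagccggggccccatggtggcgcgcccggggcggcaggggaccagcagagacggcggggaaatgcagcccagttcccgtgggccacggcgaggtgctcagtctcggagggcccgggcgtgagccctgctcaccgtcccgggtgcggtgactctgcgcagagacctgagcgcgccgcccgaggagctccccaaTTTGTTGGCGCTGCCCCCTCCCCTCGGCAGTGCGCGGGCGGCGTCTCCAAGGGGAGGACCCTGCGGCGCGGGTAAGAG

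The first comparison asked what the knockdown library held against the control. *Sox7* and *Dab2* were called higher, none of the 10 was called lower, and the median ratio over the 10 was 0.28 against -0.0015 over all genes tested. The ratio of the summed reads of the 10, mostly of the basement membrane genes, was 8.4e-05. Of all genes tested, 7.1% were called higher and 5.7% lower, which the 2 of 10 and 0 of 10 here are to be read against. Of the 10 ratios 7 were above 0 and 3 below, against 9262 above and 9324 below of the 18586 genes tested. For 4 genes (*Gata6*, *Dab2*, *Col4a1* and *Col4a2*) the counting interval lay above 0, and for *Lamb1* it lay below. Over all genes tested 4303 intervals lay above 0 and 4242 below, so that an interval clear of 0 was common.

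*Gata6* encodes the earliest acting of these GATA factors. It had 85 reads in the control, 163 in the knockdown, 69 under the wild-type construct and 143 under the mutant. The knockdown and mutant-construct libraries were high, the control and wild-type-construct libraries low. The ratio of knockdown to control was 0.75 (0.23 to 1.35), short of 2-fold. With the wild-type construct it was lower than in the knockdown by more than 2-fold, at -1.11 (-1.76 to -0.55), while the mutant construct and the knockdown differed by -0.01 (-0.49 to 0.46). Neighbours within the high pair and within the low pair did not differ beyond counting error, and the step between the pairs was 0.74 (0.20 to 1.35). An antisense gene, *Gata6os*, shares 58 exon bases with *Gata6* and had 0 to 4 reads.

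*Gata4* encodes the GATA factor that follows GATA6 in the lineage. Its reads numbered 133 in the control, 121 in the knockdown, 72 under the wild-type construct and 71 under the mutant. Both libraries with a construct were low, and the control was the highest, an order unlike that of *Gata6*. Knockdown against control gave -0.32 (-0.85 to 0.20) and mutant against wild-type construct 0.03 (-0.66 to 0.76). The largest ratio was that of the wild-type construct to the control, -0.94 (-1.56 to -0.33).

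*Sox17* and *Sox7* encode related SOX factors of this lineage and are the most thinly counted of the 10. *Sox17* had 20, 42, 16 and 20 reads in the control, knockdown, wild-type-construct and mutant-construct libraries. Only the knockdown was high, and the mutant-construct library stood at the control level, with a ratio of -0.01 (-1.43 to 1.41). *Sox17* was called lower with the wild-type construct than in the knockdown, at -1.24 (-2.65 to -0.03), and no neighbours in its order of levels differed beyond counting error.

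*Sox7* had 8 reads in the control, 28 in the knockdown, 18 under the wild-type construct and 36 under the mutant. The control was the lowest and the mutant construct the highest. Knockdown against control gave 1.57 (-0.05 to 3.68) and mutant against wild-type construct 1.03 (-0.18 to 2.39), both called and both with an interval that holds 0. The wild-type construct library lay 1.07 (-0.73 to 3.26) above the control, so *Sox7* was called there too. *Gata4* and *Sox7* lie on the same chromosome, chr14, 671994 bases apart on mm39, but did not share an order of levels.

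*Pdgfra* encodes the PDGF receptor α, through which primitive endoderm cells survive. Reads were 168 in the control, 224 in the knockdown, 154 under the wild-type construct and 224 under the mutant. The order was that of *Dab2*, in a narrower range. No neighbours differed beyond counting error, and of the 5 ratios that of the mutant to the wild-type construct, 0.59 (0.16 to 1.03), had an interval clear of 0.

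*Dab2* encodes an adaptor that links receptors of the LDL receptor family to clathrin and that primitive endoderm needs to take its place at the surface of the inner cell mass. It had 99 reads in the control, 237 in the knockdown, 81 under the wild-type construct and 265 under the mutant. The knockdown and the mutant-construct library were high, and they did not overlap with the other pair. The ratio was 1.07 (0.56 to 1.56) for knockdown against control, -1.42 (-1.99 to -0.91) for wild-type construct against knockdown, and 1.75 (1.25 to 2.32) for mutant against wild-type construct. The high pair differed by 0.34 (-0.03 to 0.71) and the low pair by 0.35 (-0.25 to 1.02). *Dab2* was the only one of the 10 called in each of these 3 comparisons.

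**Figure D2:**
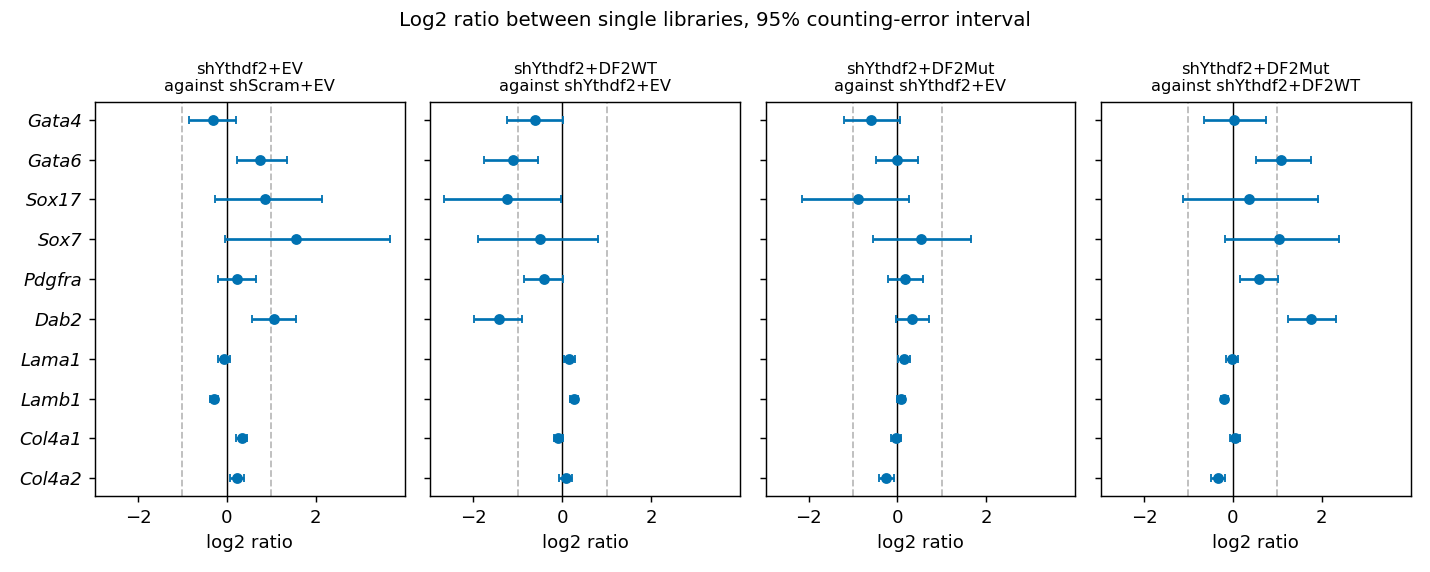
Log2 ratio of each of the 10 genes in 4 comparisons between single libraries, with bars for the 95% counting-error interval and dashed lines at 2-fold. In the last panel *Dab2* lies at 1.75 with its bar beyond the 2-fold line, *Gata6* at 1.10 and *Sox7* at 1.03 with bars that cross it, and the 4 basement membrane genes lie within 0.33 of 0.

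The basement membrane genes varied within a far smaller range, and none was called in any of the 5 comparisons. *Lama1* and *Lamb1* encode the α1 and β1 chains of the laminin that embryonic basement membranes are first built from. *Lama1* had 1821 reads in the control, 1972 in the knockdown, 2022 under the wild-type construct and 1932 under the mutant. After scaling the knockdown was lowest, and the ratio to the control was -0.07 (-0.20 to 0.06). Against the knockdown the wild-type construct lay at 0.16 (0.04 to 0.29) and the mutant construct at 0.15 (0.02 to 0.28).

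*Lamb1* was the most abundant of the 10 per length, at 25.3 FPKM in the control, 20.6 in the knockdown, 24.8 under the wild-type construct and 21.8 under the mutant. Its reads numbered 4667, 4329, 4777 and 4046 in that order. The control and wild-type-construct libraries were high and did not differ beyond counting error, and the knockdown and mutant-construct libraries were low. Knockdown against control was -0.29 (-0.38 to -0.21). *Lamb1* lies on chromosome 12, whose 418 genes averaging 200 reads or more had a median of -0.29 in the same comparison, against 0.0015 over all autosomal genes of that depth. With the chromosome's median subtracted, the ratio of *Lamb1* was -0.0084, and that of mutant to wild-type construct, -0.19 (-0.28 to -0.10), became -0.020. The other 9 genes lie on other chromosomes.

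*Col4a1* had 2146 reads in the control, 3070 in the knockdown, 2648 under the wild-type construct and 2663 under the mutant. The control stood below the 3 libraries with the *Ythdf2* hairpin, by 0.33 (0.22 to 0.44) against the knockdown and 0.24 (0.13 to 0.36) against the wild-type construct. *Col4a2* had 1110, 1483, 1434 and 1105 reads in the same order. It was high in the knockdown and with the wild-type construct and low in the control and with the mutant construct, where mutant against wild-type gave -0.33 (-0.49 to -0.17). With GC content and exon length corrected for, that ratio was -0.05. The annotated spans overlap by 85 exon bases on opposite strands, and reads that fell there were left out of both counts by the authors' settings. *Col4a1* also holds 988 exon bases of *Gm15418*, which had 3 to 17 reads.

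Chains of one assembly can be set beside each other per length. *Lamc1*, which encodes the γ1 chain, was the most abundant laminin chain of the 3, at 2.65 to 3.50 times the FPKM of *Lamb1* and 10.7 to 12.6 times that of *Lama1*. *Lama1* stood at 0.227 to 0.278 of *Lamb1*. *Lamc1* had 17028, 18433, 16500 and 18458 reads in the control, knockdown, wild-type-construct and mutant-construct libraries, and none of its 5 ratios reached 2-fold. *Col4a1* stood at 1.52 times *Col4a2* in the control, 1.62 in the knockdown, 1.45 under the wild-type construct and 1.89 under the mutant. Collagen IV is assembled with more α1 than α2 chains, and *Col4a1* was the higher transcript in each of the 4 libraries.

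A further pair of comparisons set each construct against the knockdown. With the wild-type construct *Gata6*, *Sox17* and *Dab2* were called lower and none of the 10 higher, where 5.58% of all genes tested were called lower and 5.15% higher. The median over the 10 was -0.46, with 3 ratios above 0 and 7 below, whereas the ratio of their summed reads, mostly of the basement membrane genes, was 0.08. With the mutant construct none of the 10 was called, where 2.65% of all genes were called higher and 3.38% lower, and the median was 0.03 with 5 ratios on each side of 0. These comparisons share the knockdown library with the first.

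Mutant against wild-type construct shares no library with the comparison of knockdown and control. *Gata6*, *Sox7* and *Dab2* were called higher with the mutant and none of the 10 lower, where 5.4% of all genes were called higher and 6.21% lower. With chromosome medians subtracted *Gata6* (0.98) and *Sox7* (0.96) fell short of 2-fold, as did *Sox7* with a prior count of 5 (0.88). The median over the 10 was 0.21 and that over all genes -0.012, whereas the ratio of the summed reads of the 10 was -0.05. In wild-type construct against control 1 gene, *Sox7*, was called higher and none lower, where the shares of all genes were 3.82% and 3.07%, and the median over the 10 was -0.10. The ratio of *Gata4* there, -0.94, was the nearest to the threshold from inside.

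The level of a gene bears on how often it is called. Of the 4115 genes averaging from 50 to under 300 reads, the class of *Gata4*, *Gata6*, *Pdgfra* and *Dab2*, 9.02% were called higher in the knockdown than in the control, and 5.93% higher in the mutant-construct than in the wild-type-construct library. Of the 4591 genes averaging from 10 to under 50 reads, the class of *Sox17* and *Sox7*, these shares were 17.9% and 14.9%. In the class of the basement membrane genes, 1000 reads or more, they were 0.586% and 0.333%. The 6 thinly counted genes had median ratios of 0.81 in knockdown against control and 0.81 in mutant against wild-type construct, and the 4 basement membrane genes 0.08 and -0.10.

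**Figure D3:**
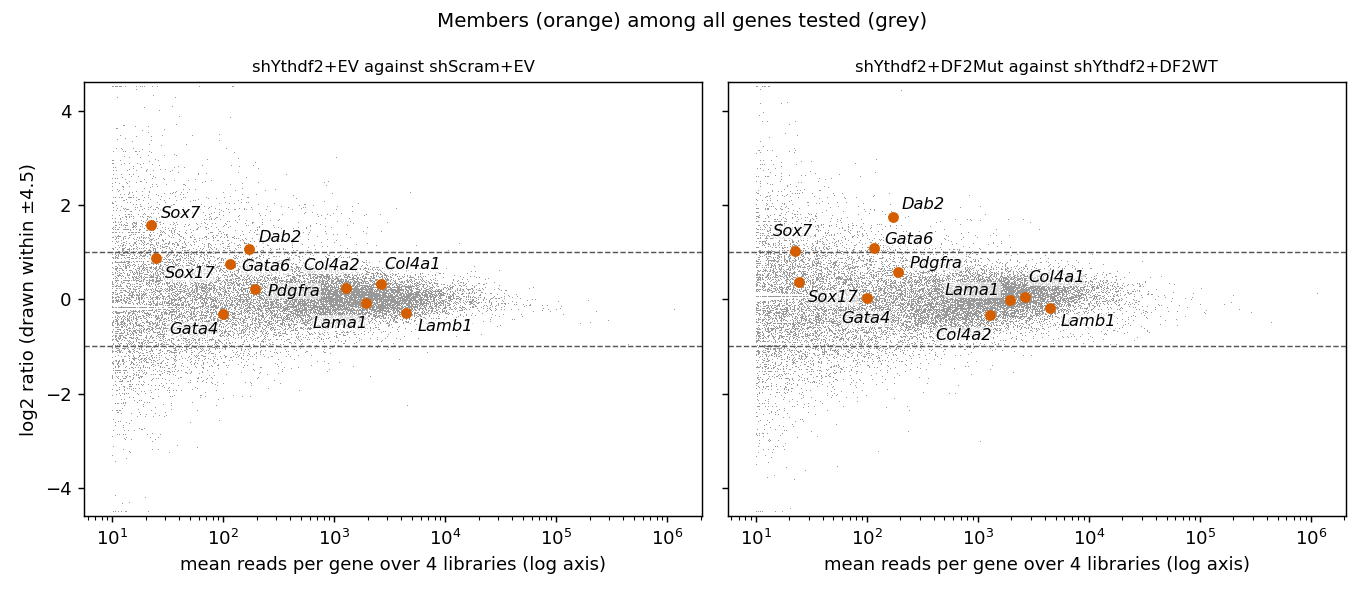
Log2 ratio against mean reads per gene (log axis) for the 18586 genes tested in grey and the 10 primitive endoderm genes in orange, for the 2 comparisons that share no library, with dashed lines at 2-fold. The grey cloud widens toward few reads, where *Sox7* and *Sox17* lie, and *Dab2* is the gene of the 10 farthest outside its neighbours on the right, at 1.75.

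Counted by order alone, which was chosen after the values were seen, 5 of the 10 (*Gata6*, *Sox7*, *Pdgfra*, *Dab2* and *Col4a1*) were higher in both the knockdown and the mutant-construct library than in both others. That order held for 26.4% of all genes tested, and for 4 of the 6 thinly counted and 1 of the 4 basement membrane genes. For *Dab2* and *Gata6* each of the 4 ratios between a high and a low library had an interval clear of 0. The share of all genes that meet this stricter rule was not counted, so these 2 cannot be set against it. In mutant construct against control the ratios were 1.41 (0.91 to 1.89) for *Dab2* and 0.74 (0.20 to 1.35) for *Gata6*. Of *Sox7*, *Pdgfra* and *Col4a1* at least 1 of the 4 intervals held 0.

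Genes whose 4 levels lay closest to those of a member, by distance between centred log2 CPM among the 10817 genes with a mean of at least 200 reads, were sought for the 4 members that ranged by at least 1. For *Gata6* the nearest was *Lrif1*, at a distance of 0.054, with 495, 955, 418 and 821 reads, followed by *St8sia6* (0.088) and *Gm20939* (0.091). For *Dab2* they were *LOC118568781* (0.24), *A630089N07Rik* (0.25) and the protocadherin gene *Pcdhga1* (0.30). *Sox7* lay nearest to *Sall3* (0.24), *Cdh2* (0.29) and *Syndig1* (0.29), and *Sox17* to *Cep85l* (0.26), *mt-Rnr1* (0.30) and *Tbc1d12* (0.39). With 4 libraries such a likeness is only loose.

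The wider lineage did not share 1 direction. Of 28 other genes of extraembryonic endoderm, 23 were tested, and 5 were called higher and 4 lower in the knockdown than in the control, with a median of 0.05. The shares of all genes tested were 7.1% and 5.7%. In mutant against wild-type construct 3 were called higher and 2 lower, with a median of -0.26, where the shares of all genes were 5.4% and 6.21%. The order of *Dab2*, both the knockdown and the mutant construct above both others, was held by 6 of the 23 (26.1%), near the 26.4% of all genes. The other 5 were not tested for few reads, with *Foxa2* at 0, 16, 6 and 8 reads, *Ihh* at 0, 7, 4 and 11, *Dkk1* at 2, 14, 2 and 4, *Apoa1* at 2, 2, 0 and 4 and *Ttr* at 0, 0, 2 and 0. *Afp* and *Ttr*, of the later visceral endoderm, had 27 reads or fewer in any library.

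DAB2 acts in endocytosis with cubilin and megalin, the receptors of visceral endoderm encoded by *Cubn* and *Lrp2*, and amnionless, encoded by *Amn*, anchors cubilin. *Cubn* had 18 reads in the control, 120 in the knockdown, 23 under the wild-type construct and 63 under the mutant, a ratio of knockdown to control of 2.52 (1.53 to 3.75). *Lrp2*, named after its values were seen, had 1616, 2895, 1644 and 2752 reads, at 0.65 (0.53 to 0.78) for knockdown against control and 0.79 (0.67 to 0.92) for mutant against wild-type construct. Both were high where *Dab2* was high. *Amn*, also named afterwards, had 25, 13, 33 and 21 reads, and was lowest in the knockdown.

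Among the other genes of this list, *Fst*, encoding the activin antagonist follistatin, had 59, 231, 70 and 188 reads, and *Apob*, encoding apolipoprotein B, 40, 135, 77 and 155, both high in the knockdown and with the mutant. The keratin gene *Krt19* stood the other way, with 788 reads in the control, 337 in the knockdown, 1097 under the wild-type construct and 264 under the mutant, a ratio of knockdown to control of -1.41 (-1.68 to -1.15). *Krt8* and *Krt18*, named after their values were seen, stood with it, at -1.05 (-1.24 to -0.85) and -0.88 (-1.18 to -0.58). These keratins are shared with trophectoderm.

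**Figure D4:**
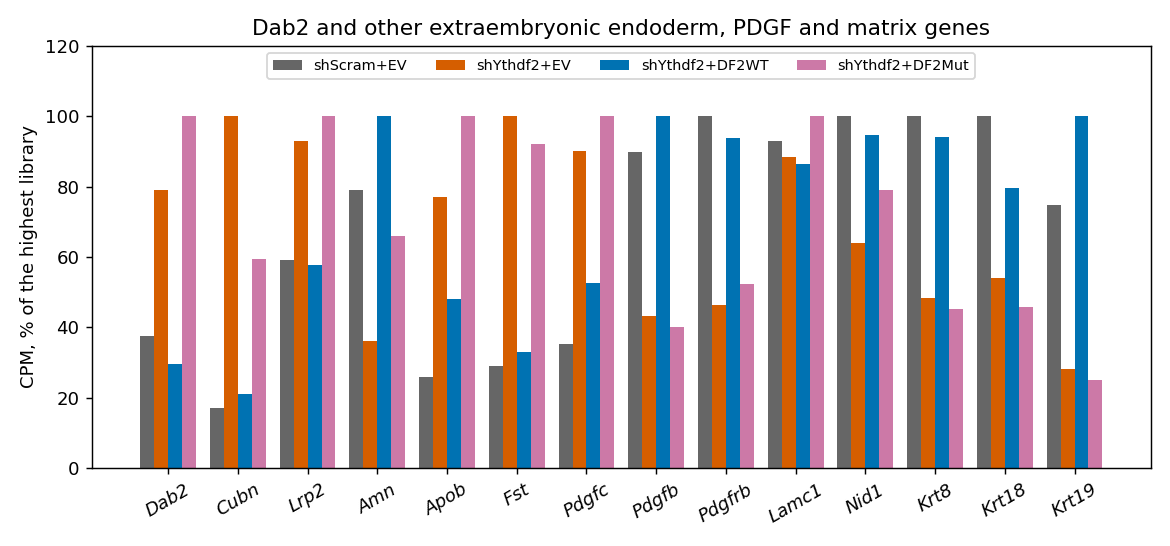
Level of *Dab2* and of 13 other extraembryonic endoderm, PDGF and matrix genes in each library, as CPM in % of the gene's highest library, 1 bar per library and no error bar. *Dab2*, *Cubn*, *Lrp2*, *Apob*, *Fst* and *Pdgfc* are highest in the knockdown or with the mutant construct, whereas *Pdgfb*, *Pdgfrb*, *Nid1* and the 3 keratin genes are highest in the control or with the wild-type construct.

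*Pdgfra* can be set beside its ligands and the other PDGF receptor. Of these 5 genes 2 were called higher and 2 lower in the knockdown than in the control, where 7.1% and 5.7% of all genes tested were. *Pdgfc*, a ligand of PDGFRA, had 464, 1355, 722 and 1329 reads, at 1.36 (1.14 to 1.58) for knockdown against control. *Pdgfb* had 183, 100, 212 and 82 reads, and *Pdgfrb*, encoding the receptor β, 747, 394, 731 and 393, at -1.11 (-1.37 to -0.86). By order alone the receptor genes were high in opposite pairs of libraries. For *Pdgfra* that order was mostly within counting error, at 0.23 (-0.19 to 0.65) for knockdown against control and 0.40 (-0.02 to 0.83) for mutant construct against control.

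The other 23 genes of basement membrane and its assembly had none called in any comparison and a median of -0.07 in knockdown against control. *Sparc*, encoding a collagen-binding matrix protein, was the most abundant of them by FPKM though not by reads, with 14149, 16635, 15461 and 14665 reads. *Nid1*, encoding nidogen, which links laminin to collagen IV, was named after its values were seen, and had 10615, 7730, 10480 and 8439 reads, at -0.64 (-0.70 to -0.58) for knockdown against control. Of 11 genes of FGF signalling none was called in any comparison, and *Fgf4*, the ligand made by epiblast and ESCs, had 6774, 6253, 6205 and 5802 reads. *Dppa5a*, the most abundant of the listed pluripotency genes by FPKM though not by reads, had 23294, 33649, 33881 and 18599 reads.

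Other cell types that share these transcripts were followed by their markers. Of 10 trophectoderm markers tested 2 were called lower in the knockdown than in the control and none higher, where 5.7% and 7.1% of all genes were. Of the 10, 4 were above 0 and 6 below, with *Hand1* at 89, 61, 99 and 46 reads and *Tpbpa* at 0 throughout. *Gata2* (42, 75, 76 and 75 reads) and *Ascl2* (28, 60, 32 and 30), named after their values were seen, were higher in the knockdown than in the control. The 12 listed summed to 149, 116, 150 and 121 CPM in the 4 libraries, most of it *Tfap2c* (47.9 to 64.9 CPM) and *Tead4* (34.5 to 55.1 CPM). The mesendoderm list summed to 27.3 to 38.0 CPM, with *T* and *Cer1* at 0 and *Foxa1* at 52, 116, 44 and 113 reads, high in the same pair of libraries as *Gata6*. Of its 6 genes tested 3 were above and 3 below 0 in knockdown against control, and *Gsc* (18, 8, 22 and 8 reads), named after its values were seen, was low where *Foxa1* was high. Endothelial markers, of interest because *Sox7* and *Sox17* are also expressed there, summed to 182 to 203 CPM, most of it *Pecam1* (135 to 170 CPM). Without *Pecam1* they summed to 33.2, 47.1, 39.3 and 51.7 CPM in the control, knockdown, wild-type-construct and mutant-construct libraries. Most of that was *Tek*, named after its values were seen, at 25.1, 37.8, 27.2 and 41.2 CPM. The order of the sum, highest in the pair where *Dab2* was high, was thus largely that of *Tek* and not of the list. The part of endothelial cells in the levels of *Sox7* and *Sox17* was not tested. Single markers went either way, with *Emcn* at 0, *Kdr* at 30, 154, 80 and 138 reads, *Tie1* at 82, 40, 94 and 39 and *Esam* at 33, 63, 93 and 50. Cardiac markers, a tissue of *Gata4* and *Gata6*, summed to 7.29 to 10.2 CPM, with *Myl7* at 89, 34, 151 and 48 reads. Of the 7 cardiac genes tested 4 were above 0 in knockdown against control, at a median of 0.21, among them *Myh6* with 58, 104, 70 and 104 reads, named after its values were seen. Fibroblast markers summed to 76.9 to 88.0 CPM, with *Dcn*, *Lum* and *Prrx1* at 0 and *Twist1* at 57, 206, 120 and 130 reads. Of the 7 tested 5 were above 0 and 2 below in knockdown against control. The 2 below were *Pdgfrb* and *Thy1* (448, 296, 317 and 243 reads), the latter named after its values were seen. A gene with 0 reads is limited to 3 reads in a library, or at most 0.0951 CPM.

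Of the 17 2C genes tested 16 were high in the same pair of libraries as *Gata6* and *Dab2*. The exception was *Tcstv1* (1, 43, 13 and 9 reads), named after its values were seen. In mutant against wild-type construct 13 of the 17 were called higher, where 5.4% of all genes were. The 18 listed summed to 234 CPM in the control, 780 in the knockdown, 253 under the wild-type construct and 705 under the mutant, and all 17 tested were called higher in the knockdown than in the control, with *Zscan4d* at 1463, 6266, 1792 and 4814 reads and *Tdpoz4* at 34, 187, 61 and 118. *Zscan4f* and *Zfp352* were called likewise. Their near-identical copies make the count of any single member uncertain. The 6 thinly counted primitive endoderm genes summed to 16.2, 22.7, 12.5 and 23.9 CPM over the same libraries, and the 4 basement membrane genes to 308, 302, 331 and 306 CPM. The part of 2C-like cells in the levels of these genes was not tested.

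Base composition also moved with some comparisons. Across the 16726 tested genes with a value, the Spearman correlation of GC content with the log2 ratio was -0.06 in knockdown against control, 0.34 in wild-type construct against knockdown and -0.39 in mutant against wild-type construct, a description across genes of shared libraries. The 10 genes ranged from 45.7% GC in *Dab2* to 60.6% in *Col4a2*, with a median of 53.2% against 49.9% over all genes. With GC content and exon length corrected for, mutant against wild-type construct was 1.56 for *Dab2* and 1.26 for *Gata6*. The sequence GGACT, a common form of the m6A consensus, occurred in the longest transcript of all 10 genes and of 88.5% of all genes, at a median of 1.80 and 1.02 per kilobase. Whether any site is methylated was not measured in these libraries.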

How the data were processed

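RNA from 4 E14 ESC libraries, 1 per group by its title, was analysed from the read counts per gene that the authors deposited. Per the file headers, featureCounts 2.0.3 counted exons of the mm39 RefSeq annotation by gene symbol, whereas the submitters' processing notes name fastp 0.19.4, HISAT2 2.2.1, DESeq2 1.40.2 and mm10. Positions given as mm39 follow the headers. The paired option was set without counting pairs, so both mates add to a gene, and counting was unstranded although the libraries were stranded, which leaves overlapping and antisense genes uncertain. Reads with several alignments or several genes were left out. The methods describe replicates, but the labels give 1 library per group.

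Counts were scaled with TMM factors (0.976 to 1.01) of edgeR 4.0.16 in R 4.3.3, with a prior count of 0.5, in proportion to library size, in each log2 ratio. Genes averaging 10 reads or more, 18586 in all, were tested, and genes at 2-fold or more were called. The 95% intervals are Clopper-Pearson, with each 2 reads taken as 1 pair. Amplified reads are not independent molecules, so intervals cover counting error only. The floor of 3 reads is 0.0839 to 0.0951 CPM. FPKM used the summed exon length in the table. GC content and GGACT came from the longest GENCODE transcript per gene, matched by symbol for 90.0% of tested genes, and promoter windows from RefSeq.

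Named were the 10 genes, *Ythdf2*, *Lamc1* and up to 3 nearest genes per member. From each other list up to 4 genes were named that had a mean of at least 50 reads and were called in any of the 5 comparisons. Where a list had none, the most abundant by FPKM was named. Members and lists were chosen with earlier results of these data known. Alternatives were scaling by total counts, by the upper quartile or by size factors of DESeq2 1.42.0, a prior of 5, other filters and thresholds, a correction for GC content and length, and subtraction of chromosome medians. The ratio and interval steps were tested on simulated read pairs with counting error only, the setting that the interval assumes. That test does not bear on any further spread in the real libraries.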

Additional observations from a re-analysis of the deposited data

How the results depend on the processing

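With 1 library per group, depth limits what can be called most for *Sox17* and *Sox7*, which had 8 to 42 reads, and the spread between cultures is unknown. No paired analysis was possible because each group has 1 library and the ratios come from no test. Of 515 values recomputed under the alternatives, 65 moved, and no member's ratio past 2-fold changed sign. Of the 65, 43 were counts over all genes, 39 of them under another filter, threshold or interval rule and 4 under a prior count of 5. The ratios of the 10 genes moved in 8 of 300 cases and changed sign in 7, each from a reported size of 0.079 or less with an interval that held 0, among them *Col4a2* in wild-type construct against knockdown (0.08, and -0.12 with the GC and length correction) and *Lamb1* in wild-type construct against control (-0.03, and 0.08 with chromosome medians subtracted).

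In knockdown against control the number of members called higher, 2, was 1 with a mean count of at least 50 (which drops *Sox7*), 1 where the interval had to exclude 0, and 4 at 1.5-fold. In mutant construct against knockdown 2 were called lower at 1.5-fold. In mutant against wild-type construct 1 of the 3 called higher, *Dab2*, was called with chromosome medians subtracted. In wild-type construct against control the 1 called higher, *Sox7*, was 0 with a prior count of 5, with a mean count of at least 50 and where the interval had to exclude 0, and 1 was called lower, *Gata4*, at 1.5-fold and with the GC and length correction, at -1.06. The scalings moved the median of all genes by at most 0.050. The ratio of summed member reads, most of which are of the 4 basement membrane genes, was 8.4e-05 in knockdown against control (median 0.28), 0.080 in wild-type construct against knockdown (median -0.46), -0.055 in mutant against wild-type construct (median 0.21) and 0.080 in wild-type construct against control (median -0.10), so that the sign turned in the last 3.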
